A study of Homo sapiens with 13 samples.

Results

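Ribosome footprints (RF) of vehicle-treated MDA-MB-231 cells were compared with those of untreated cells of the same passage, gene by gene. The aim was to describe how footprint levels differed between them before any drug is considered. MDA-MB-231 is an established human line of ductal breast carcinoma, grown in RPMI with 10% fetal calf serum. The untreated library came from passage 3, as did the libraries of cells given DMSO in fresh medium for 1 h and for 2 h. A second library of the DMSO treatment for 2 h came from passage 4 (replicate 2), for which no untreated library was used. The study then set these vehicle cells against cells given 25 nM Silvestrol, an inhibitor of the RNA helicase eIF4A, and the Silvestrol libraries enter here only where a fit across all 7 RF libraries is named. Genes were taken where each of the 3 passage 3 libraries held 100 or more reads, which left 9571 of 24875 gene names in the table (38.5%) but 99.1% to 99.2% of the counted reads of each library. The change at 2 h could be taken for 9565 of them and that at 1 h for 9563, since the rest lacked an RPKM value (reads per kilobase of counted sequence, scaled to library size).

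A footprint is the stretch of mRNA that 1 ribosome covers, so the footprint count of a gene follows both how much mRNA is there and how often it is translated. No mRNA library of untreated cells was used here, so a change in mRNA and a change in translation cannot be told apart. Fresh medium brings serum growth factors, which are known to switch on immediate early genes such as FOS and EGR1 within minutes and then their feedback inhibitors. Cytokine genes that NF-kB drives, such as IL6 and IL8, are also known to respond fast to inflammatory signals. The untreated cells are not described as having had a change of medium, so DMSO, fresh medium and handling cannot be told apart.

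The table counted 26393419 reads in the untreated library, 31188148 at DMSO 1 h, 26176257 at DMSO 2 h in passage 3 and 6446356 in passage 4. VIM, LGALS1 and S100A4 had 7031, 5265 and 1925 RPKM in untreated cells, and the hormone receptor genes ESR1 and PGR had 0 reads and 1 read. The epithelial gene CDH1 had 4 reads. The other genes listed as low in this line, ERBB2 and EPCAM, were read at 3.62 and 3.53 RPKM. KRT8, which MDA-MB-231 also makes, had 119, 10 and 130 reads in the untreated, DMSO 1 h and DMSO 2 h libraries. Of 11 markers of leukocytes, endothelium, fibroblasts and fat, the highest was COL1A1 at 1.76 RPKM in untreated cells. The passage 3 comparisons have 1 library per condition and no replicate check, so intervals printed for them are 95% exact binomial intervals and cover counting error only.

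Most genes kept the footprint density they had in untreated cells. At 2 h the log2 ratio of RPKM to untreated had a median of −0.05 and an SD of 0.22 over genes, and at 1 h a median of −0.02 and an SD of 0.19. At 2 h 98.5% of genes were within 1.5-fold of untreated, and at 1 h 99.1%. At 2 h 7 genes were at least 2-fold higher (0.0732% of those compared) and 7 at least 2-fold lower (0.0732%). At 1 h 5 genes were at least 2-fold higher (0.0523%) and 1 was at least 2-fold lower (0.0105%). With a threshold of 1.5-fold the counts at 2 h were 51 higher (0.533%) and 88 lower (0.92%), and at 1 h they were 50 higher (0.523%) and 36 lower (0.376%). Scaling of read counts by TMM in place of RPKM gave 8 and 8 genes past 2-fold at 2 h, and 6 higher and 4 lower at 1 h.

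**Figure D1:**
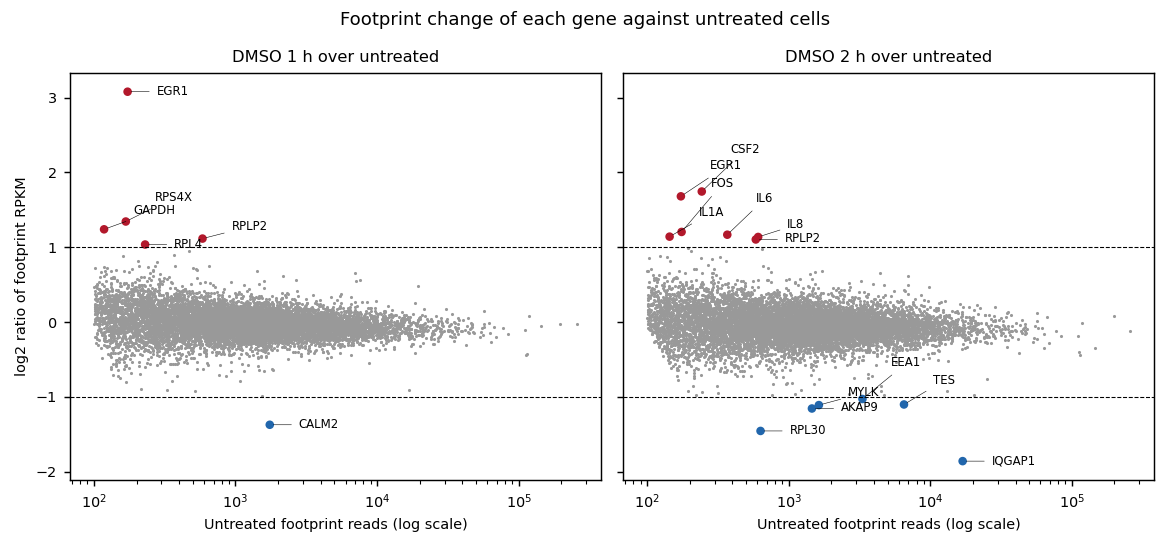
Log2 ratio of footprint RPKM to untreated cells (vertical axis) against the untreated read count of each gene (horizontal axis, log scale), for DMSO 1 h (left) and DMSO 2 h (right), with 1 point per gene reported and dashed lines at 2-fold. The named points are those past 2-fold: EGR1 stands at 3.08 at 1 h, and IQGAP1 at −1.86 at 2 h from 16918 untreated reads.

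The spread of the ratios narrowed with depth but was wider than counting error. Among the fifth of genes with the fewest untreated reads (100 to 358) the 2 h ratios had an SD of 0.28, against a median counting SD of 0.14. In the fifth with the most reads (3465 to 258428) the SD was 0.17, against a counting SD of 0.03. The passage 4 library stood further away. Over the same genes the log2 ratio of DMSO 2 h in passage 4 to untreated had an SD of 0.52, with 349 genes at least 2-fold higher (3.67%) and 144 at least 2-fold lower (1.51%). Passage 4 differed from passage 3 at the same treatment and time with an SD of 0.53, which is wider than the 0.22 between passage 3 DMSO 2 h and untreated. Passage and vehicle change together in the ratio of passage 4 to untreated, which also shares its untreated library with both other ratios, so its values are given beside the genes past 2-fold and others where stated. Passage 4 had no part in choosing the genes past 2-fold in passage 3, but it did choose those named below for being past 2-fold in both passages. The positions counted for RPKM also differed between libraries, with a counted length over 10% different from untreated for 1204 genes in passage 4, 153 at DMSO 2 h and 75 at DMSO 1 h.

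Read counts were also tested in 1 edgeR quasi-likelihood fit over 11979 entries in all 7 RF libraries, in which the spread comes from the pairs of DMSO 2 h and of Silvestrol 2 h libraries and the lone untreated and 1 h libraries are assumed to vary like them. The passage 3 library of Silvestrol 2 h was placed by its title, while another of its labels gives 1 h, so this doubt touches the spread in both fits below. In that fit no entry passed an adjusted p of 0.05 against untreated, at 1 h or at 2 h. At an unadjusted p under 0.05 there were 19 of the 11979 entries at 1 h and 78 at 2 h. Both are fewer than that threshold would pass if no entry had changed. DESeq2 called 0 at 1 h and 4 at 2 h. Of those 4, 2 were lower, IQGAP1 among them, and TUBA1C and CR610533 were higher with 0 reads in untreated cells. The labels give the passages as shared between DMSO and Silvestrol, and with the passage as a replicate block the same test called 34 entries higher (0.284%) and 43 lower (0.359%) at 2 h. At 1 h the fit with the block called 21 higher (0.175%) and 19 lower (0.159%), and between 2 h and 1 h it called 17 higher (0.142%) and 15 lower (0.125%). Of the entries called at 2 h, 29 of the 34 higher and 39 of the 43 lower had the 100 reads asked of the genes described here, and 7 and 4 of these were counted over under 50% of their coding length. Both fits are given below as the fit without and with the block. The block leaves 1 residual degree of freedom, its passage offset comes from the 2 h libraries alone, and the biological coefficient of variation went from 0.26 without it to 0.0846 with it.

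Sequences upstream of these genes are shown for the elements that serum and cytokine signals are known to use, because the genes past 2-fold include textbook targets of both. EGR1 has a pair of CArG boxes, the element bound by serum response factor, that start 105 and 83 bases before its transcription start. MYLK, one of the genes that were lower, also has a CArG box, 94 bases before its start. IL6 and CSF2 hold an NF-kB-like element and RPLP2 a cAMP response element. The NF-kB-like element was also in IQGAP1, one of the genes that were lower, and in NFKBIA, RPS4X and YWHAE. Those below are printed 5′ to 3′ on the strand of the gene with the element in capitals. They come from RefSeq promoters on GRCh38.p14, a later build than the one the table uses.
EGR1, distal box, chr5:138465364-138465393: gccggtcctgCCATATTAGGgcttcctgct
EGR1, proximal box, chr5:138465386-138465415: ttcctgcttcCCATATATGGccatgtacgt
MYLK, chr3:123620623-123620652: ataaaccatcCCTTTTATGGgagttgaagc
IL6, chr7:22727118-22727147: atcaaatgtgGGATTTTCCcatgagtctca
CSF2, chr5:132073677-132073706: ataagggccaGGAGATTCCacagttcaggt
RPLP2, chr11:809863-809892: tgagcgcctcgTGACGTCActctgaggcgc

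Promoters of 300 bases, from 250 before to 50 after the start, were found for 6939 of the 9571 genes (72.5%). On either strand, a CArG box was in 0.98% of them, a CRE (TGACGTCA) in 3.53%, an AP-1 site (TGAGTCA or TGACTCA) in 2.88%, an E-box (CACGTG) in 10.6% and an NF-kB-like element (GGNNNTTCC) in 23.4%. None of these motifs contains the letters of another. Of the 6 promoters of genes at least 2-fold higher at 2 h, 1 held a CArG box, 1 a CRE, 1 an AP-1 site, 0 an E-box and 2 an NF-kB-like element. Of the 5 promoters of genes at least 2-fold lower at 2 h, 1 held a CArG box and 1 an NF-kB-like element, and 0 held any of the others. Of the 32 promoters of genes at least 1.5-fold higher at 2 h, 1 held a CArG box, 4 a CRE, 2 an AP-1 site, 3 an E-box and 8 an NF-kB-like element. Of the 61 promoters of genes at least 1.5-fold lower, 1 held a CArG box, 1 a CRE, 1 an AP-1 site, 4 an E-box and 11 an NF-kB-like element. These are matches of letters and not measured sites.

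EGR1, a zinc finger transcription factor of the immediate early class, had the largest change at 1 h. Its footprints were 3.21 RPKM in untreated cells, 27.1 at 1 h, 10.3 at 2 h and 1.79 at 2 h in passage 4, from 173, 1733, 569 and 24 reads. It was thus highest at 1 h, still above untreated at 2 h in passage 3, and below the passage 3 untreated level in passage 4. The change was 8.44-fold at 1 h (log2 3.08, interval 2.85 to 3.31) and 3.20-fold at 2 h (log2 1.68, interval 1.43 to 1.93). With the block the log2 change was 3.05 ± 0.20 (SE) at 1 h with an adjusted p of 6.57e-48 and 1.42 ± 0.19 at 2 h with an adjusted p of 4.94e-10. Without the block the same 1 h change had an SE of 1.03 and an unadjusted p of 0.029 in edgeR. The fall from 1 h to 2 h had a log2 change of −1.40 in RPKM (interval −1.54 to −1.26) and an adjusted p of 1.21e-19 with the block. EGR1 lies at chr5:137801168-137804992 on the plus strand of GRCh37, the build of the table.

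FOS, the partner of JUN in the AP-1 factor, was highest at 2 h in passage 3. It had 4.63 RPKM in untreated cells, 6.39 at 1 h, 10.7 at 2 h and 3.43 in passage 4. Its 2 h ratio was 1.20 on the log2 scale (interval 0.95 to 1.47), called with the block (adjusted p 0.00425), and passage 4 gave −0.43, within counting error of untreated (interval −1.02 to 0.12).

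Of the other 5 genes at least 2-fold higher at 2 h, 4 encode inflammatory cytokines. CSF2, which encodes the growth factor GM-CSF, had 17.6 RPKM in untreated cells, 29.4 at 1 h, 59.1 at 2 h and 18.9 in passage 4. Its level was 3.35-fold that of untreated at 2 h (log2 1.74, interval 1.54 to 1.96), and it was still climbing between 1 h and 2 h, by 1.01 on the log2 scale (adjusted p 0.00694 with the block). Passage 4 lay within counting error of untreated, at 0.10 (interval −0.32 to 0.50). IL6, an inflammatory cytokine, had 17.8, 33.1, 39.9 and 37.4 RPKM in the same order. It was past 2-fold at 2 h in both passages, at 1.17 (interval 0.99 to 1.35) in passage 3 and 1.08 (interval 0.82 to 1.33) in passage 4. With the block its 2 h change was 1.23 ± 0.19 (adjusted p 1.62e-07), and without it 1.15 ± 0.24, with an unadjusted p of 0.004 in edgeR.

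IL8, a chemokine for neutrophils, had 66.2 RPKM in untreated cells, 95.6 at 1 h, 146 at 2 h and 83.5 in passage 4. Its 2 h ratio was 1.14 in passage 3 (interval 1.00 to 1.28) and 0.34 in passage 4 (interval 0.09 to 0.57). IL1A, the alarm cytokine interleukin 1 alpha, had 5.38, 8.74 and 11.9 RPKM in passage 3 and 3.04 in passage 4. Its ratio was 1.14 at 2 h and −0.83 in passage 4, so the passages lay on opposite sides of untreated. Both were called at 2 h with the block (adjusted p 3.42e-06 for IL8 and 0.0212 for IL1A).

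**Figure D2:**
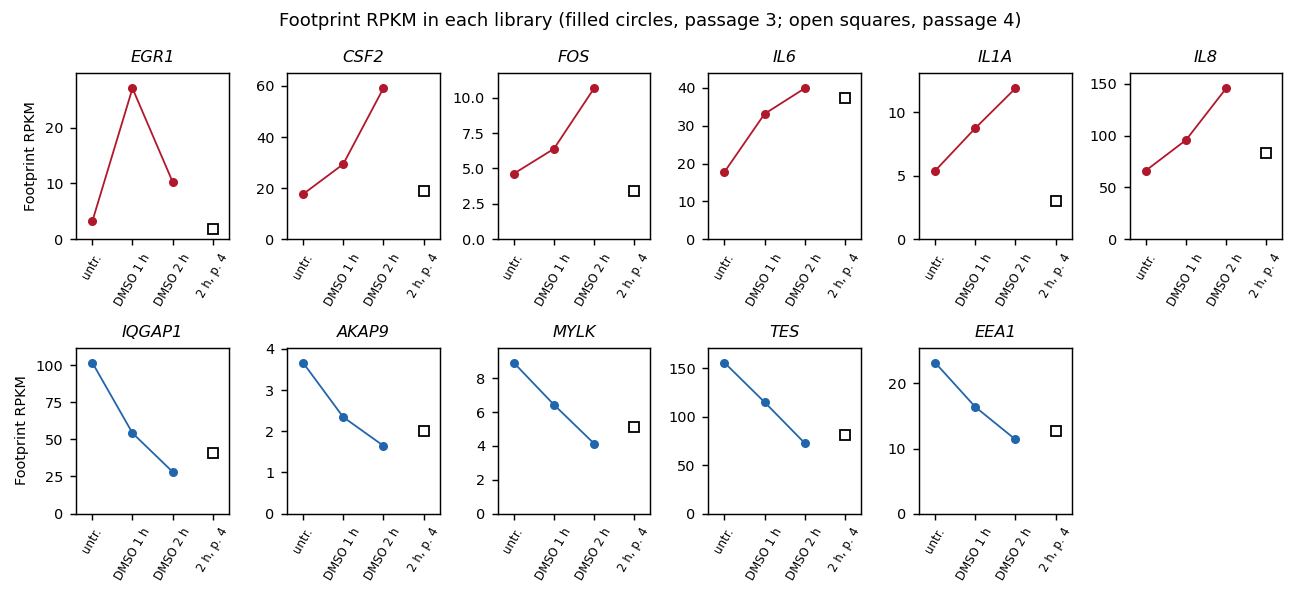
Footprint RPKM (vertical axes, from 0) of 6 genes that were higher and 5 that were lower at DMSO 2 h, in the untreated, DMSO 1 h and DMSO 2 h libraries of passage 3 (filled circles joined by lines) and the DMSO 2 h library of passage 4 (open squares), 1 library per point. EGR1 peaks at 27.1 at 1 h while the other 5 are highest at 2 h, passage 4 is near the 2 h value for IL6 alone among the upper genes, and all 5 lower genes have a passage 4 value between the untreated and the passage 3 value at 2 h.

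IQGAP1, a scaffold that binds actin and calmodulin, had 102 RPKM in untreated cells, 54.3 at 1 h, 28.1 at 2 h and 40.7 in passage 4. It was 3.62-fold lower at 2 h (log2 −1.86, interval −1.90 to −1.81), and passage 4 gave −1.32. With the block the change was −1.76 ± 0.12 (adjusted p 1.13e-43), the difference between 2 h and 1 h was −0.87 (adjusted p 1.65e-09), and DESeq2 called the 2 h change (adjusted p 0.000659). Its 1 h change was also called with the block (adjusted p 1.46e-08). IQGAP1 lies at chr15:90931474-91045471 on the plus strand of GRCh37.

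AKAP9, MYLK, TES and EEA1 were also past 2-fold at 2 h and well covered. AKAP9, an anchor for kinases at the centrosome and Golgi, had 3.67 RPKM in untreated cells, 2.34 at 1 h, 1.65 at 2 h and 2.00 in passage 4. MYLK, the myosin light chain kinase, had 8.92, 6.43, 4.14 and 5.13 RPKM in the same order. TES, a LIM protein of focal adhesions, had 156, 115, 72.7 and 80.8 RPKM. EEA1, a tether of early endosomes, had 23.2, 16.4, 11.4 and 12.6 RPKM. In all 4 the order was the same, with untreated highest, 1 h between, and the 2 h libraries of both passages lowest. The 2 h log2 ratios were −1.15, −1.11, −1.10 and −1.03, and those of passage 4 were −0.88, −0.80, −0.95 and −0.88. All 4 were called at 2 h with the block, with adjusted p from 1.5e-10 for TES to 1.18e-05 for MYLK, and none at 1 h.

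Further genes short of 2-fold at 2 h are named here. DBN1 and ZNF185 were picked because passage 4 was past 2-fold the same way, so the direction of their passage 4 values was fixed by that choice, and the others were chosen after their values were seen. DBN1 (drebrin, which binds actin) had 40.7 RPKM in untreated cells and 20.9 at 2 h, a log2 ratio of −0.96, and −1.03 in passage 4. ZNF185, an actin-associated LIM protein, was at −0.97 and −1.45. AHNAK, a very large scaffold under the plasma membrane, was at −0.97 and −0.72. DST (dystonin) and PLEC1 (plectin), which link filament systems, were at −0.92 and −0.76 in passage 3 and at −0.80 and −0.87 in passage 4. NEXN, an actin-filament binding protein, was at −0.90 and −0.74. SMC1A, a cohesin subunit and no part of the cytoskeleton, was at −0.92 and −0.78, and these genes are examples and not a tested group. Among 21 listed SRF and YAP targets of the cytoskeleton, none was past 1.5-fold at either time and the median was −0.05 at 2 h, as for all genes. With the block the matrix genes CYR61 and CTGF were called higher at 1 h (adjusted p 0.0145 and 0.00274) and the actin-binding LIMA1 lower at 2 h (adjusted p 0.00564). ACTB, which encodes beta-actin, was called higher at 2 h (adjusted p 1.62e-07), counted over 3.11% of its coding length.

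Several genes that crossed 2-fold are members of families with near-identical copies, and only a small part of their coding sequence was counted, because the deposited RPKM leaves out positions with ambiguous reads. The counted length was taken as reads over RPKM and set against the coding length of the gene, scaled so that the median gene is at 100%. It was under 50% for 440 of the 8338 genes with a coding length. RPLP2, a stalk protein of the large ribosomal subunit, had 344 RPKM in untreated cells, 745 at 1 h, 739 at 2 h and 790 in passage 4, counted over 14.9% of its coding length. Its log2 ratios were 1.12, 1.10 and 1.20. RPL30 had 619, 733, 226 and 743 RPKM in the same order, counted over 8.95%, so that the passage 3 library at 2 h stood apart at a log2 ratio of −1.45 while passage 4 gave 0.26.

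At 1 h, RPS4X, GAPDH, RPLP2 and RPL4 were the other genes at least 2-fold higher, with log2 ratios of 1.34, 1.24, 1.12 and 1.04. Each was counted over 9.52% to 14.9% of its coding length. In passage 4, at 2 h, they were at −0.04, 2.65, 1.20 and 1.51. GAPDH, the glycolytic enzyme, had 118 reads in untreated cells, 331 at 1 h, 117 at 2 h and 221 in passage 4. Its 2 h ratio in passage 3 was −0.14 (interval −0.52 to 0.24). CALM2, which encodes calmodulin, was the 1 gene of those compared at least 2-fold lower at 1 h. It had 802 RPKM in untreated cells, 310 at 1 h, 630 at 2 h and 1045 in passage 4 over 14.7% of its coding length. In GAPDH, RPL4 and CALM2 the 1 h library was the one that stood apart in passage 3. Values of these genes are uncertain, and the part of copy assignment in them was not tested. The read minimum leaves out genes that fell or rose across it. RPS16 had 832, 208, 76 and 498 reads from untreated to passage 4, SNRPF 501, 73, 258 and 208, and PTP4A1 72, 273, 153 and 64. They were chosen after their values were seen.

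Between the treated libraries, 2 genes were at least 2-fold higher at 2 h than at 1 h (0.0209%) and 8 at least 2-fold lower (0.0837%). CSF2 and CALM2 were the higher ones, at 1.01 and 1.02. Those lower included EGR1 at −1.40 and RPL30 at −1.70, and also ANXA2, GAPDH, RPL4, ACTR2 and YWHAE, each counted over at most 20.0% of its coding length.

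Taken as a list, the immediate early transcription factors were on the higher side. Of 33 listed, 25 had enough reads, and 23 of them lay above the median of all genes at 2 h and 23 at 1 h. The list's median log2 ratio was 0.29 at 2 h and 0.21 at 1 h, against −0.05 and −0.02 for all genes. EGR1 and FOS were past 2-fold at 2 h, 5 were past 1.5-fold, and 5 were called higher with the block at 2 h (EGR1, FOS, CSRNP1, ID3 and BHLHE40). CSRNP1, a nuclear factor induced early, was at 0.97 at 2 h and 0.75 at 1 h, but at −0.17 in passage 4. ATF3, a stress-induced factor, was at 0.81 and 0.53 (adjusted p 0.0504 at 2 h with the block). KLF6 was higher at 1 h (0.55, adjusted p 0.00666) than at 2 h (0.22). MYC, with the most reads on the list, was at 0.27 at 2 h and 0.21 at 1 h, but was listed at 0 reads in passage 4, as were 44 of the genes in all. JUN was at −0.10 and 0.05. In passage 4, ATF3 and BHLHE40 were at 0.29 and 0.33, and ID3, KLF6 and JUN at −0.16, −0.20 and −0.85. List members named here and below that are neither past 2-fold nor among those with most reads, such as ATF3, JUN and DUSP1, were chosen after their values were seen. In passage 4 the median of the list was −0.31, with 8 of 24 members above the median of all genes.

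Signalling feedback inhibitors followed with smaller values. Of 25 with enough reads, 20 lay above the median of all genes at 2 h, and the list's median was 0.18 at 2 h and 0.09 at 1 h. None was past 2-fold and 2 were past 1.5-fold at 2 h. These were TNFAIP3, which shuts off NF-kB signalling, at 0.87 (−0.85 in passage 4), and NFKBIA, the inhibitor that NF-kB itself induces, at 0.66 (adjusted p 7.5e-05 with the block). NFKBIA had 141 RPKM in untreated cells, 162 at 1 h, 223 at 2 h and 114 in passage 4. DUSP1, a MAP kinase phosphatase, was at 0.47 at 2 h and at −1.65 in passage 4. The 2 members with most reads, ERRFI1 and DUSP4, were at 0.23 and −0.07 at 2 h. The passage 4 median of the list was −0.33.

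Secreted growth factors, cytokines and proteases were split between the 4 cytokines above and the rest. Of 18 with enough reads, 4 were past 2-fold at 2 h and the same 4 were called with the block, while the median of the list was 0.15 at both times. The member with most reads stayed near untreated at 2 h, with THBS1 at −0.06, and HBEGF, a ligand of the EGF receptor, was at 0.35. LIF, a cytokine of the IL6 family, was at 0.15. In passage 4 the median was 0.41, with PLAU, EREG and TGFA between 0.91 and 0.94 and IL11 at −1.56.

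Of the 89 genes on these 3 lists, 21 had under 100 reads in some library. SMAD7 came closest, with 64, 81 and 87 reads. IL1B had 47 reads in untreated cells, 104 at 1 h and 118 at 2 h, or 1.78, 3.33 and 4.51 RPM. The chemokine gene CXCL1 had 31, 42 and 97 reads, and EGR2 had 3, 26 and 15. PTGS2, the inducible cyclooxygenase, had 44, 59 and 55 reads. TNF, CCL2, AREG and IER3 were listed at 0 reads in all 3 libraries.

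Heat shock genes lay on the lower side at both times. Of 16 with enough reads, 2 lay above the median of all genes at 2 h, and 0 had a ratio above untreated. The median was −0.26 at 2 h, −0.18 at 1 h and −0.22 in passage 4. HSPH1, a large HSP70-type chaperone, had 156 RPKM in untreated cells, 122 at 1 h, 109 at 2 h and 117 in passage 4, a 2 h ratio of −0.52 (adjusted p 0.0209 with the block). DNAJA1 was at −0.61 and FKBP4 at −0.48 at 2 h, counted over 22.8% and 37.7% of their coding length. HSPA8 and HSP90AA1 were at −0.96 and −0.53 at 2 h, and were counted over 5.95% and 24.6% of their coding length, and 8 of the 16 were counted over less than 50%.

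Mitosis genes were also low as a list, with a median of −0.16 at 2 h, −0.15 at 1 h and −0.34 in passage 4. No member was past 1.5-fold in passage 3, while in passage 4 the RPKM of 5 was at least 1.5-fold lower, as it was for 712 of all 9521 genes compared. Of the 24 members 4, CDC20 and AURKA among them, were counted over less than 50% of their coding length. TOP2A, which untangles DNA before division, had 418, 349, 329 and 329 RPKM from untreated to passage 4. CCNB1, the mitotic cyclin, was at −0.10 and −0.13. Replication-dependent histones were lower at 1 h (median −0.28, with 3 of 22 above the median of all genes) than at 2 h (−0.06). The linker histone genes HIST1H1E and HIST1H1C, with 114583 and 112741 untreated reads, were at −0.43 and −0.44 at 1 h and at −0.44 and −0.40 at 2 h, and both were called at both times with the block. The block fit called 4 of these histone genes lower at each time, core histone genes included, whose copies are nearly identical. It called HIST2H2BE, under the read minimum, higher at both times. That gene had 0 reads in untreated cells, 56 at 1 h, 98 at 2 h and 80 in passage 4.

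Cytosolic ribosomal proteins had the highest list median at 1 h, 0.42, and 3 of 25 were past 2-fold (RPS4X, RPLP2 and RPL4). At 2 h the median was 0.07. Of the 25 members, 24 were counted over under 50% of their coding length, and 64 more of the 89 listed had too few reads, so the list rests on the small unambiguous parts of these genes.

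The change varied with coding length. Genes with a coding sequence under 500 bases had a median log2 ratio of 0.13 at 2 h (524 genes), and those of 500 to 1000 bases 0.04. The median was −0.05 for 1000 to 2000 bases, −0.11 for 2000 to 4000, −0.17 for 4000 to 8000 and −0.18 for 8000 bases and over (106 genes). At 1 h the medians ran from 0.04 in the shortest class to −0.07 in the class of 4000 to 8000 and −0.07 in the longest. In passage 4 they ran from 0.06 to −0.19, while passage 4 against passage 3 at 2 h ran from −0.04 to 0.03. Of genes of 4000 bases or more, 14 and 6 in the last 2 classes were at least 1.5-fold lower at 2 h, and 0 were as much higher. Over 5 classes of equal size by untreated RPKM the 2 h medians ran from −0.07 to −0.02. Over such classes by untreated reads they ran from 0.00 in the lowest to −0.08 in the highest at 2 h and from 0.05 to −0.06 at 1 h. Untreated reads are also the denominator of these ratios, so sorting by them can itself tilt the medians this way. How much it did was not tested. The coding length was known for 87.1% of the genes.

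**Figure D3:**
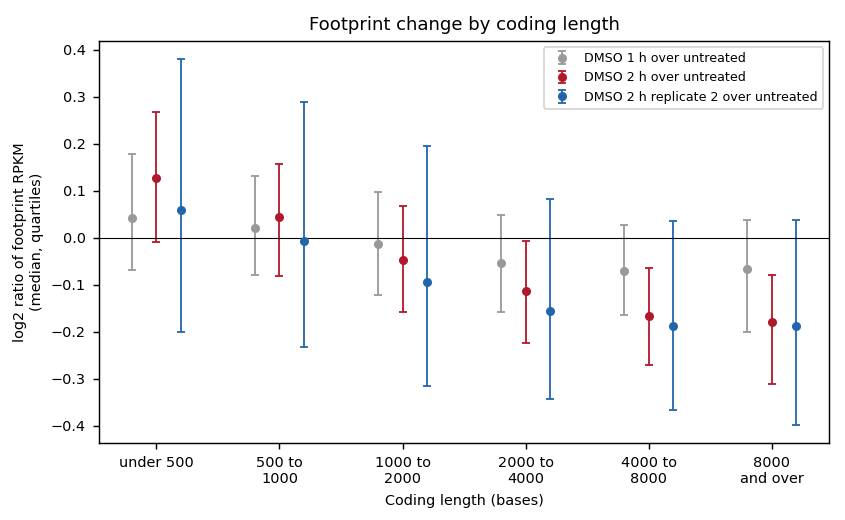
Median log2 ratio of footprint RPKM to untreated cells (vertical axis, bars from the first to the third quartile of genes) in 6 classes of coding length in bases (horizontal axis), for DMSO 1 h, DMSO 2 h and DMSO 2 h replicate 2 (passage 4). The 2 h medians go from 0.13 in the shortest class to −0.18 in the longest, and those at 1 h from 0.04 to −0.07.

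Genes were also named where passage 4 was past 2-fold from untreated in the direction of passage 3, which the passage 3 ratios did not choose alone. On the higher side these included TNFSF10, the death ligand TRAIL, with 27.0 RPKM in untreated cells, 32.4 at 1 h, 42.9 at 2 h and 115 in passage 4. It was at 0.67 in passage 3 and 2.09 in passage 4, and was called with the block (adjusted p 7.2e-06). CKS2, a subunit of cyclin-dependent kinases, was at 0.96 and 1.07, but counted over 13.0% of its coding length. The carbonic anhydrase gene CA12 and the connexin gene GJB2 were at 0.59 and 0.57 in passage 3 and at 1.68 and 1.59 in passage 4. VSTM2L, SLC9A8, PPAPDC1B, COL9A2 and TLCD1 were between 0.54 and 0.71 in passage 3. ACTB was at 0.57 and 1.99, counted over 3.11% of its coding length, and its counted length in passage 4 was 2.26 times that in untreated cells. Its reads scaled to library size were 37.9 RPM in untreated cells, 70.9 at 2 h and 344 in passage 4, a wider gap than its RPKM showed. On the lower side, besides IQGAP1, ZNF185 and DBN1, came KIAA1671 at −0.86 and −1.25, FBXO46 at −0.72 and −1.24, and PDK4, a kinase that restrains pyruvate oxidation, at −0.62 and −1.08. TARDBP was at −0.81 and −1.25, counted over 20.5% of its coding length, but had 36.7, 27.4 and 32.0 RPM, with a counted length in passage 4 of 2.05 times that in untreated cells.

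Among the 8 highest genes at 1 h, the 3 short of 2-fold were ANXA2 at 0.95, IL6 at 0.90 and FAM127A at 0.88. The 8 lowest were CALM2, HSP90AA1 at −0.99, SFRS3 at −0.92, IQGAP1 at −0.91, the zinc finger genes ZNF566, ZNF790 and ZKSCAN4 at −0.91, −0.90 and −0.80, and the histone variant gene H3F3B at −0.79. ZNF566 had 328 reads in untreated cells, 219 at 1 h and 244 at 2 h. SFRS5, a splicing factor chosen for mention after its values were seen, had 263, 416, 403 and 368 RPKM from untreated to passage 4, and was called at both times with the block (adjusted p 0.000137 at 1 h and 7.5e-05 at 2 h).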

How the data were processed

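Footprints of cells without drug were taken from the Silvestrol experiment. The authors cut linker and poly(A) sequence off the reads, dropped rRNA, used Bowtie against hg19, and deposited counts of footprints with a unique position for every canonical transcript. The authors also deposited RPKM values, which leave out positions with ambiguous reads. CASAVA 1.8.1 and Bowtie2 are named in the submitters' notes. Its 38897 lines (25758 without repeats) were reduced to 24875 gene names, keeping the line with most reads. Of its columns, 7 with values per sample (mRNA, and RPKM of Silvestrol libraries) were not used, nor were the authors' own TE changes and scores. The experiment of another drug was not used. Gene names turned into dates (28) are not named, and some genes that enter the counts are not reported or plotted by name here.

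Log2 ratios of RPKM were taken without a pseudocount. Counts with at least 10 reads in at least 2 libraries were tested with edgeR 4.0.16 (TMM, quasi-likelihood, Benjamini-Hochberg, R 4.3.3), and with DESeq2 1.42.0 as an alternative. In simulated 2 h data over 11979 genes, 200 genes were changed by 2 on the log2 scale. The test called 129 of them and 0 others without the block, and 200 and 9 others with it. The simulated counts were drawn from the fit with the block and its spread, which favours that fit. Only genes at the read minimum in every RF library were changed. The simulation therefore cannot show whether p-values with the block hold for the real libraries. At 2 h, DMSO and Silvestrol libraries of the same passage deviated together (r = 0.686 across 11979 entries, which are not independent), and the labels give the passages as shared, so the numbers pair the samples. Genes and lists were chosen with earlier results of these data known. Named genes are the 12 highest and lowest at 2 h with passage 4 past 2-fold the same way, the 8 highest and lowest at 1 h, list members and all other genes past 2-fold, the 2 of each list with most reads, and listed genes with too few reads. Coding lengths are from GENCODE on GRCh37. Counts deposited for 1 library of a condition give no spread between cultures, and passages of 1 line give only the spread between these samples.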

Additional observations from a re-analysis of the deposited data

Results flagged for a closer look

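RPL30, a ribosomal protein gene, was above untreated at 1 h and below it at 2 h in passage 3. The log2 ratio was 0.24 at 1 h (interval 0.10 to 0.39) and −1.45 at 2 h (interval −1.68 to −1.23), a difference of −1.70. That difference, between 1 library per time, was not tested. The edgeR contrast of 2 h against 1 h, which also uses the passage 4 library, gave −1.19 with the passage as a block (adjusted p 1.65e-05) and −0.21 without it (unadjusted p 0.818). Passage 4 gave 0.26 at 2 h, and the gene was counted over 8.95% of its coding length.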

How the results depend on the processing

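The passage 3 comparisons rest on 1 library per condition, so their intervals hold no spread between cultures, and the passage 4 library, with 2032 genes under 100 reads, is shallower. In the order higher and lower at 2 h, at 1 h, and at 2 h over 1 h, the genes past 2-fold were 7 and 7, 5 and 1, and 2 and 8. At a threshold of 1.5-fold they were 51 and 88, 50 and 36, and 22 and 45, and at 3-fold 2 and 2, 1 and 0, and 0 and 1. With a minimum of 50 reads they were 10 and 16, 10 and 5, and 6 and 16, with 200 reads 4 and 7, 2 and 1, and 2 and 4, and with 1 read 375 and 376, 352 and 289, and 325 and 355. Counts scaled to library size (RPM) gave 3 lower at 1 h and 4 higher at 2 h over 1 h, and both TMM and DESeq2 scaling gave 4 and 4 there. Log2(RPKM + 1) gave 4 lower at 2 h and 1 higher at 2 h over 1 h, and log2(RPKM + 0.5) gave 1 there. The mean of both DMSO 2 h libraries gave 20 and 26 at 2 h, and 8 and 26 over 1 h. Without the passage 3 DMSO 2 h library, passage 4 gave 349 and 144, and 240 and 163 over 1 h.

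Against 0 calls in edgeR without the block, DESeq2 called 2 and 2 at 2 h and 0 and 1 for 2 h against 1 h, and no filter on low counts gave 1 lower at 2 h. The replicate block gave 34 and 43 at 2 h, 21 and 19 at 1 h, and 17 and 15 for 2 h against 1 h. Added after the data were seen, the block gave 30 and 47, 21 and 19, and 17 and 16 with RLE size factors, and 29 and 42, 21 and 19, and 17 and 15 with no filter on low counts. Leaving out each 2 h library in turn gave 0 calls throughout (range 0 to 0). The block with a library left out has no residual degrees of freedom and was not run.

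Among genes past 2-fold, the 2 h ratio changed sign in passage 4 for EGR1 (−0.84), FOS (−0.43), IL1A (−0.83) and RPL30 (0.26). Over 1 h it did so for ACTR2 (0.19), ANXA2 (3.03), CSF2 (−0.64), GAPDH (1.41), RPL30 (0.019), RPL4 (0.47) and YWHAE (1.08), and the mean of both libraries did so for ANXA2 (0.91), GAPDH (0.014) and YWHAE (0.026). For ANXA2 the counted length in passage 4 was 0.106 times that in untreated cells, and its reads scaled to library size were 35.7 RPM at 1 h and 30.1 in passage 4, with no change of sign. Of 4062 other recomputed values of named genes and list medians, 3640 moved by no more than the spread between passages, and 248 of the 408 that moved did so with passage 4 in place of passage 3. The cause was not tested.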

Other observations

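Other listed groups had medians near untreated in passage 3 and further from it in passage 4 for several lists. Cholesterol and fatty acid synthesis genes had a median log2 ratio of 0.07 at 2 h and 0.06 at 1 h over 30 genes, and 0.87 in passage 4. FASN and FDFT1, with the most reads of that list, were at 0.10 and 0.10 at 2 h in passage 3, and at 0.40 and 0.76 in passage 4. Genes of the ER unfolded protein response had a median of −0.13 at 2 h and 0.08 at 1 h over 15 genes, and 0.79 in passage 4, where all 15 lay above the median of all genes. CALR, a chaperone of the ER, had 516 RPKM in untreated cells, 549 at 1 h, 471 at 2 h and 1005 in passage 4, and PDIA4 was at −0.40 at 2 h and 0.57 in passage 4. No untreated library of passage 4 was used, so passage and vehicle cannot be told apart in these values.

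Medians at 2 h lay between −0.07 and 0.11 for the hypoxia, glucose-responsive, integrated stress response, NRF2, polyamine, circadian, FOXO, G1, ribosome biogenesis, elongation factor and oxidative phosphorylation lists. In these lists no member was past 2-fold at either time in passage 3. In passage 4 the medians were −0.38 for the glucose-responsive, −0.33 for the ribosome biogenesis, −0.30 for the elongation factor and −0.26 for the polyamine list. The glucose sensor target TXNIP was at −0.12 at 2 h and 0.08 at 1 h, HIF1A at 0.06 and 0.04, and CCND1, the G1 cyclin, at 0.04 and 0.01. The nucleolar protein gene NCL was at −0.33 and −0.26. PPP1R15A, which directs removal of the eIF2 alpha phosphate, was at 0.64 and 0.68, and was called at both times with the block (adjusted p 0.018 and 0.00723). DDIT4, an inhibitor of mTORC1, had 389 RPKM in untreated cells, 267 at 1 h, 388 at 2 h and 338 in passage 4, and was called lower at 1 h with the block (adjusted p 0.0152). With the block, TXN, which encodes thioredoxin, was also called higher at 2 h (adjusted p 4.32e-05) and the glycolytic gene PGK1 lower (adjusted p 0.00566), both counted over less than 50% of their coding length. Of the metallothionein and zinc list 1 gene, SLC30A1, had enough reads, at 0.04 at 2 h. Just inside the minimum of 100 reads, GRAMD4 (100 untreated reads) was at 0.68 at 2 h and DFFB (100 reads at 2 h) at −0.25. Just outside it, with 99 reads, ABHD15 was at −0.71 and HOXD1 at 0.38.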
